A study of Rattus norvegicus with 11 samples.

Results

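The genes described here are those of the rat major histocompatibility complex (MHC, called RT1 in the rat), of the chemokines and of the interleukins, as they were measured in the medial prefrontal cortex (mPFC). A gene was included where the name of its probe on the array began with RT1-, or with Ccl, Cxcl, Ccr, Cxcr or Il followed by a digit. This rule took 164 probes with 133 gene names, out of 41012 non-control probes with 35561 names. The names sorted them into 32 probes of MHC class I genes, 11 of class II genes, 31 of chemokine ligands, 14 of chemokine receptors, 30 of interleukins, 45 of interleukin receptors and associated proteins, and 1 further probe named for the RT1 region.

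The arrays came from 6 rats that had self-administered heroin and 5 yoked rats, which received saline whenever their matched animal received heroin, with 1 array per rat. All were males of 4 months that had 14 days of abstinence before an extinction session, in which the drug was no longer given, and the tissue was taken directly afterwards. The strain was not given in the sources used here. The arrays were single-colour Agilent whole genome arrays with probes of 60 bases, and signal is given throughout as a multiple of the median probe of the same array ("array medians"). Before this scaling the median probe had a signal of 42.7 to 78.3 on the heroin arrays and 58.0 to 83.2 on the saline arrays. All heroin arrays carried the same position code in the file headers and all saline arrays another, so position and group cannot be told apart. There were 6 scans, and heroin and saline rats 2 to 6 of the same number shared a scan. With 6 against 5 rats the smallest p that an exact two-sided permutation test can give is 0.00433.

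MHC class I molecules carry peptides from inside the cell to the cell surface and occur on most cells, together with beta-2 microglobulin, the product of B2m. Class II molecules are restricted to antigen-presenting cells, which in the brain are chiefly microglia and macrophages at its borders. Chemokines are small secreted proteins that attract leukocytes through receptors of the Ccr and Cxcr families, and many of them are made by glia and endothelium when inflammatory signalling is active. Interleukins are the secreted signals by which immune cells, and in the brain also glia, act on each other. The RT1 region holds many class I genes that resemble each other closely and differ between rats, so probes for them can bind related transcripts.

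Probe sequences of the RT1 class I genes show this resemblance. Of the 32 class I probes, 15 shared a run of at least 20 bases with another MHC probe, or matched it at 80% or more of an overlap of at least 30 bases. The probes of RT1-CE1 and RT1-CE12 shared a run of 27 bases, printed in capitals, and matched at 52 of 57 bases where they overlapped.

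RT1-CE1: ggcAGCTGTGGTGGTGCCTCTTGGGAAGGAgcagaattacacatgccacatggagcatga
RT1-CE12: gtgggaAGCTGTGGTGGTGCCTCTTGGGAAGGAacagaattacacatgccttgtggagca

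The first lies at chr20:3595952-3596011 of build rn3, and the second at 148081 to 149420 of the unplaced part of chromosome 20, a span longer than the probe. The probes of RT1-A3, at chr20:4999310-4999369, and RT1-CE10, at chr20:3469272-3469331, also matched at 52 of 57 bases where they overlapped, and capitals mark the bases that differ. They are shown because RT1-A3 was the class I probe with the smallest p between the groups.

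RT1-A3: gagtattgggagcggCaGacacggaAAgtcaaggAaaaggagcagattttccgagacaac
RT1-CE10: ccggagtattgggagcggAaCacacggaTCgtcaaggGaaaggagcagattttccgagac

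The remaining sequence belongs to the class I probe with the widest spread between rats, the RT1-Aw2 probe A_44_P196401 at chr20:5059401-5059470.

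RT1-Aw2: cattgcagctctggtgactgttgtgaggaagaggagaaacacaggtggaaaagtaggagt

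The software scored a probe as detected where its signal was well above background. By this measure 89 of the 164 probes were detected on all 11 arrays (54.3%), against 62.4% of all non-control probes. The groups of genes differed widely. MHC class I probes were detected on all arrays in 29 of 32 cases, chemokine ligands in 21 of 31, interleukin receptors and associated proteins in 20 of 45, class II in 4 of 11, interleukins in 10 of 30 and chemokine receptors in 4 of 14.

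**Figure D1:**
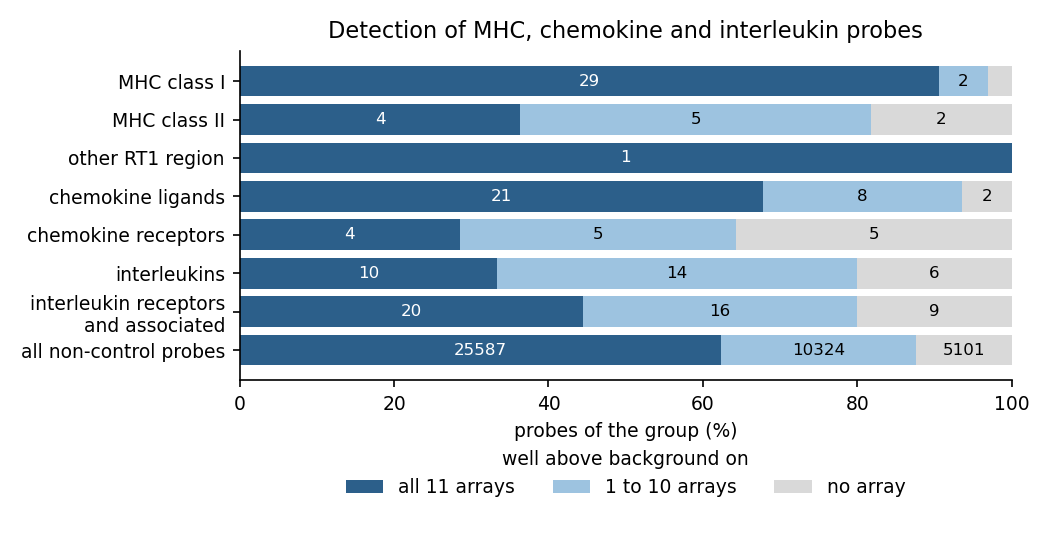
Detection of the probes by group of genes. Each bar gives the share of a group's probes (horizontal axis, percent) that were well above background on all 11 arrays, on 1 to 10 arrays or on no array, with the number of probes printed inside. Class I probes were detected on all arrays in 29 of 32 cases, while 5 of 14 chemokine receptor probes were detected on no array.

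No probe was detected on any array for 21 of the 133 genes, against 4620 of all 35561 names. By probes, 15.2% were detected on no array, against 12.4% of all non-control probes. Among the 21 genes were the chemokine receptors Ccr3, Ccr4, Ccr7, Ccr8 and Ccr9, which guide eosinophils and lymphocytes, the neutrophil chemokine receptors that the array calls Il8ra and Il8rb (now Cxcr1 and Cxcr2), and the interleukins Il2, Il7, Il9, Il10, Il11 and Il12b. The class II gene RT1-DOa, the class I gene RT1-M10-1, and the chemokines Ccl12 and Ccl28 were also without a detected probe. The number of the 164 probes detected per array was between 96 (heroin rat 6) and 129 in heroin rats and between 111 and 131 in saline rats. Over all non-control probes the share detected per array was 68.7% to 81.0% on the heroin arrays and 73.4% to 82.5% on the saline arrays, so it was lowest on the same heroin array.

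Several genes of inflammation lay at the edge of detection. Il6, a cytokine of the acute inflammatory response, was detected in 2 of 6 heroin and 4 of 5 saline rats, with signals of 0.138 to 0.363 and 0.242 to 0.319 array medians. Ccl4, a chemokine that attracts monocytes and T cells, was detected in 2 of 6 heroin rats and in no saline rat, with signals of 0.110 to 0.495 and 0.0848 to 0.230. Cxcl2, a neutrophil attractant, was detected in 4 of 6 heroin and 1 of 5 saline rats. Il1r1, the signalling receptor of interleukin 1, was detected by its brightest probe in 4 of 6 heroin and 5 of 5 saline rats. These genes were not tested between the groups, because a signal that is not well above background gives only a bound.

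Heroin and saline rats were compared by limma over the 25555 probes that were detected on all arrays and could be fitted, 89 of which belonged to the genes described here. After adjustment by the Benjamini-Hochberg method no probe had an adjusted p under 0.05, neither among the 89 nor among all 25555 (0%), and the smallest adjusted p = 0.263. The methods of the study used a pair of thresholds instead, which asks for 1.4-fold or more together with p below 0.02 before adjustment. The chemokines Ccl3 and Ccl2 were past both in the direction of higher signal in heroin rats, which is 2 of 89 probes (2.25%) against 1.79% of all tested probes. RT1-A3 was past both in the direction of lower signal, 1 of 89 (1.12%) against 0.923% of all. With this scaling the shares are near those of all probes. Quantile normalization and scaling to the 75th percentile each left Ccl3 and Ccl2 higher but put 3 probes past both as lower, by adding Cxcl9 and an RT1-Aw2 probe to RT1-A3. The 2 higher (2.25%) then stood against 0.853% of all probes with quantile normalization and 0.129% with the 75th percentile, and the 3 lower (3.37%) against 0.935% and 2.92%. With the methods' t-test, which uses each probe's own spread alone, none of the 89 was past both. Of all tested probes 0.849% then were as higher and 0.36% as lower.

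**Figure D2:**
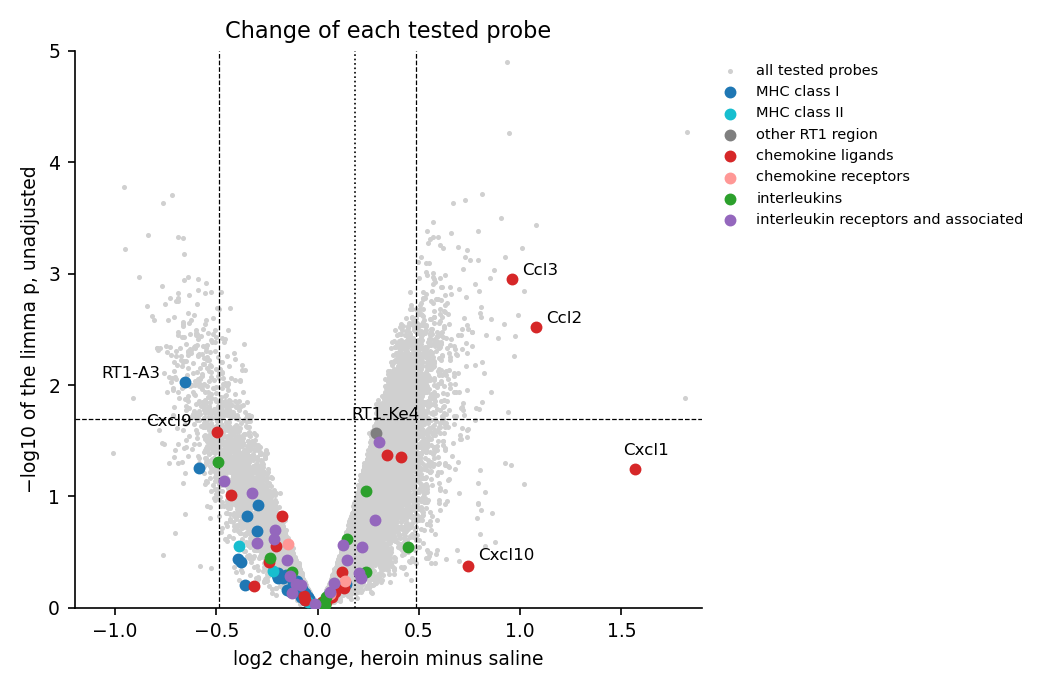
Change between heroin and saline rats for every tested probe. The horizontal axis is the log2 change (heroin minus saline), the vertical axis is −log10 of the unadjusted limma p, coloured points are the 89 probes by group and grey points are all 25555. Dashed lines mark the p and fold thresholds, and the dotted line the median change of all probes (0.18). Ccl3 and Ccl2 stand past both lines on the right and RT1-A3 on the left.

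The whole set of probes was shifted, which bears on every direction given here. With the scaling of the methods the median log2 change of the tested probes, heroin minus saline, was 0.18, against 0.01 after quantile normalization and -0.03 with the 75th percentile. The median of the 89 probes was -0.06 on the same scale, and 74 of the 89 lay below the median of all probes. Without heroin rat 1 the median of the 89 was 0.019, and 70 lay below that of all probes. An unadjusted p under 0.05 was found for 6 of the 89 as higher (6.74%, against 15.7% of all probes) and for 3 as lower (3.37%, against 2.83%). The signals of the groups did not overlap for 2 of the 89 probes (2.25%, against 1.80% of all), which were Ccl3 and RT1-Ke4.

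Ccl3 (macrophage inflammatory protein 1 alpha) attracts monocytes and T cells. Its probe, at chr10:71758981-71759040 of rn3, read 1.73, 1.99, 2.65, 2.83, 1.97 and 1.92 array medians in heroin rats 1 to 6. In saline rats 2 to 6 it read 0.567, 0.973, 1.67, 1.45 and 1.22. Every heroin rat was above every saline rat, by a margin that was small beside the spread within the groups, since heroin rat 1 and saline rat 4 differed little. The log2 change was 0.96 ± 0.24 (SE, limma p = 0.00113, adjusted p = 0.263, exact permutation p = 0.00433), or 0.78 above the median probe, and 0.93 after quantile normalization. It was past both thresholds without any single rat, where it lay between 0.72 and 1.11. Because the groups did not overlap, the heroin rat was necessarily higher in all 5 pairs of rats scanned at the same time. The permutation p is then also the smallest possible, so neither adds to the lack of overlap. With the methods' t-test it was not past the p threshold.

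Ccl2 (monocyte chemoattractant protein 1) is the main attractant of monocytes and acts through Ccr2. Heroin rats 1 to 6 read 1.1, 1.19, 0.876, 1.54, 0.816 and 1.92 array medians, and saline rats 2 to 6 read 0.365, 0.301, 0.667, 0.727 and 1.05. The probe was detected on all arrays, but its lowest saline values were near the edge of detection. That of saline rat 3 lay inside the range of Il6 in saline rats, 0.242 to 0.319. The groups overlapped through saline rat 6, which was above heroin rats 3 and 5, while 4 of the 6 heroin rats were above every saline rat. The log2 change was 1.08 ± 0.30 (SE, limma p = 0.00301, adjusted p = 0.263, exact permutation p = 0.0173), and 1.13 after quantile normalization. It stayed past both thresholds without any single rat (0.85 to 1.30), and in all 5 same-scan pairs the heroin rat was higher. With the normexp background correction the change was 0.42 and below 1.4-fold. That setting also added 50 to each signal, where the median probe had 42.7 to 83.2, which makes log2 changes of dim probes smaller. How much of the drop came from the added 50 was not tested. The methods' t-test did not take Ccl2 past the p threshold.

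**Figure D3:**
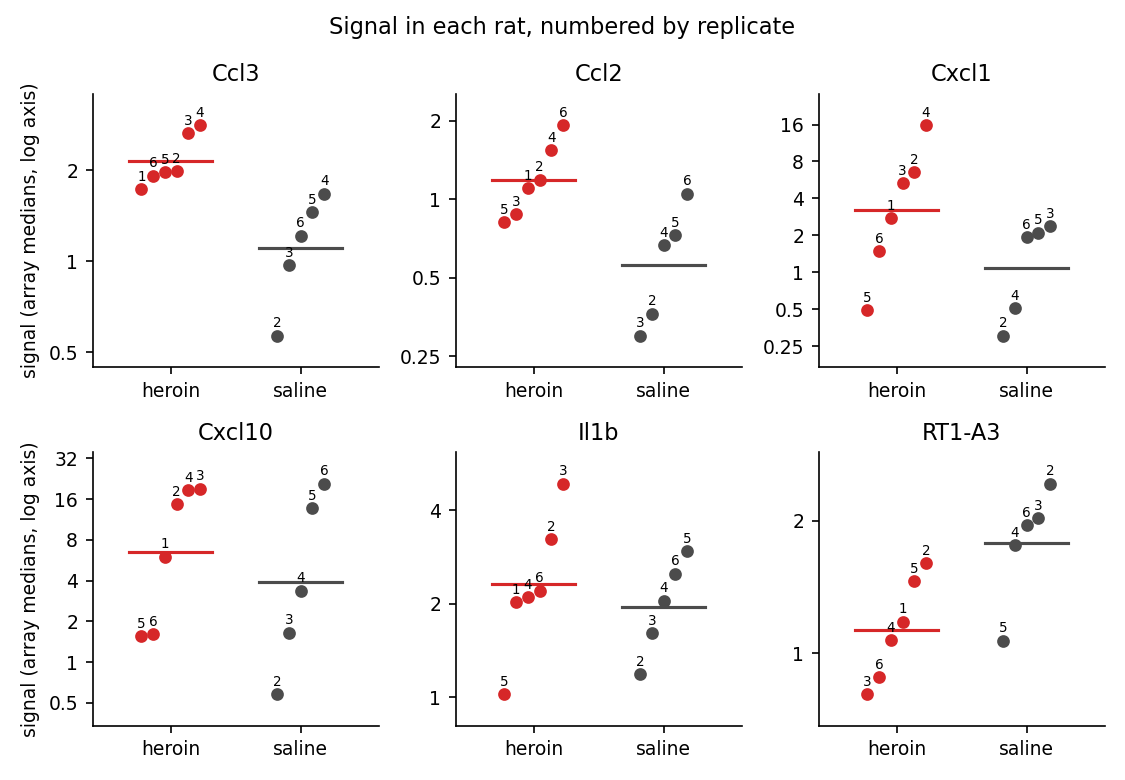
Signal of 6 probes in each rat. The vertical axes are signal in array medians on a log scale that differs between panels, points are rats numbered by replicate, and lines are the group means of the log2 values. All 6 heroin rats lie above all 5 saline rats for Ccl3 only among these 6 probes, and Cxcl1 and Cxcl10 spread widely within both groups.

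Cxcl1, which attracts neutrophils, differed more between the group means but spread far more within them. Heroin rats 1 to 6 read 2.74, 6.57, 5.29, 15.8, 0.493 and 1.49 array medians, against 0.305, 2.39, 0.510, 2.11 and 1.92 in saline rats 2 to 6. Heroin rats 1 to 4 were above every saline rat and heroin rats 5 and 6 were not. The log2 change was 1.57 ± 0.76 (SE, limma p = 0.0569, exact permutation p = 0.143), so it did not pass. Without heroin rat 5 it was 2.11 and past both thresholds.

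Cxcl10 and Cxcl11, ligands of Cxcr3 that interferons induce, varied between rats of both groups. Cxcl10 read 6.02, 14.7, 19.2, 18.6, 1.55 and 1.61 array medians in heroin rats 1 to 6 and 0.579, 1.65, 3.38, 13.7 and 20.8 in saline rats 2 to 6. The highest rat was thus 36.0 times the lowest, both of them saline rats, and the SD about the group means was 1.91 on the log2 scale, the largest of all 25555 tested probes. The log2 change was 0.74 ± 0.91 (SE, exact permutation p = 0.524). Cxcl11 read 1.97, 6.25, 5.61, 3.23, 0.770 and 0.525 in heroin rats and 1.06, 1.32, 2.34, 4.36 and 8.94 in saline rats, so heroin rats 2, 3 and 4 and saline rats 5 and 6 had the 5 highest values of both genes. Cxcl9, the remaining ligand of Cxcr3, did not follow them. It read 1.23 to 2.43 in heroin rats with a median of 1.83 and 1.89 to 3.51 in saline rats, and its log2 change of -0.50 ± 0.20 (SE, limma p = 0.0264, exact permutation p = 0.0563) passed both thresholds only after another scaling (-0.65 after quantile normalization) or array weighting, without heroin rat 6 and saline rat 5 together (-0.50), or without heroin rat 2 or 5 or saline rat 4 or 5 (-0.58, -0.57, -0.57 and -0.61).

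Promoter sequences, taken from RefSeq with build GRCr8, were searched in the 250 bases before the annotated start of 101 of the genes. Ccl2 and Ccl3 were not among them. The kappaB consensus, the site that NF-kappaB binds, occurred on either strand in 20 of the 101 genes, against 3.54% of 33469 promoters, and 7 of the 22 chemokine ligands held it, Cxcl1, Cxcl2, Cxcl5, Cxcl10, Cxcl11, Ccl9 and Ccl20. Of 18 class I genes 6 held it, with RT1-A2 and RT1-A3 among them. The letters TTTC, any 2 bases and TTTC again, the core of the element through which interferons act, occurred on either strand in 8 of the 101, against 3.41% of all promoters. Among the chemokine ligands these were Cxcl10 and Ccl19. A match is a description of the letters alone. The promoters of Cxcl1, Cxcl10 and RT1-A3 are shown with the matched bases in capitals, since these genes carry the largest spreads and the class I difference described here.

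Cxcl1: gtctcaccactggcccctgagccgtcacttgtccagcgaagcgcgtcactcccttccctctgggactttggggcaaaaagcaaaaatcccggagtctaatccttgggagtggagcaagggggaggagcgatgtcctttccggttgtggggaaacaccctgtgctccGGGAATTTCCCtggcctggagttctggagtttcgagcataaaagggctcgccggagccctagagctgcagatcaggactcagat
Cxcl10: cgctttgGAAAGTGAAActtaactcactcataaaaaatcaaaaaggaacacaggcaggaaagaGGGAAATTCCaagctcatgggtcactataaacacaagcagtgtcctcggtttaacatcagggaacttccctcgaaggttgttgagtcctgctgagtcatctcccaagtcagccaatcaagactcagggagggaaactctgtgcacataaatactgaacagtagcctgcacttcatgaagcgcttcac
RT1-A3: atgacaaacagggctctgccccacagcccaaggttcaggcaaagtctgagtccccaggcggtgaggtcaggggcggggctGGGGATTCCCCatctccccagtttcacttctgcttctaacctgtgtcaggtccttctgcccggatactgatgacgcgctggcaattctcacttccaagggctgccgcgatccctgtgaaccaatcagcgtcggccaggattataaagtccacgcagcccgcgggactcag

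The Cxcl1 window is chr14:17479322-17479571 on the minus strand, with its kappaB match beginning 84 bases before the start. The Cxcl10 window is chr14:15988816-15989065 on the plus strand, with the interferon letters 243 and the kappaB match 187 bases before the start. The RT1-A3 window is chr20:4849201-4849450 on the plus strand, with the match 170 bases before the start.

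Among the other chemokine ligands, Cxcl12, which holds neural progenitors and leukocytes in place through Cxcr4, had probes that disagreed. The brighter, A_44_P1034439, read 55.5 to 106 array medians in heroin rats with a median of 63.7 and 39.3 to 67.0 in saline rats. Its log2 change was 0.41 ± 0.19 (SE, limma p = 0.0447, exact permutation p = 0.0736), but 0.15 after quantile normalization, and the second probe of the gene changed by 0.02 ± 0.16. It was past both thresholds only without saline rat 5 (0.51), among the rats left out singly. Ccl5, which attracts T cells, read 0.807 to 4.14 in heroin rats and 1.32 to 2.24 in saline rats, a log2 change of -0.06 ± 0.30 (SE, exact permutation p = 0.848). Over all 21 chemokine ligand probes tested, 13 were higher and 8 lower in heroin rats, with a median log2 change of 0.05 and a range from -0.50 to 1.57, while after quantile normalization 13 were lower.

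Of the chemokine receptor probes, 4 were tested, and none had an unadjusted p under 0.05. Cxcr4, the receptor of Cxcl12, gave -0.15 ± 0.13 (SE, exact permutation p = 0.195) by its brighter probe and 0.06 ± 0.19 by the other.

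MHC class I probes mostly had lower signals in heroin rats, by amounts inside the spread between rats. The log2 change was negative for 25 of the 29 tested probes, with a median of -0.13 and a range from -0.66 to 0.14. All 29 lay below the median change of all tested probes, and all 29 were negative after quantile normalization, where the median was -0.32 and 11965 of the 25555 probes were negative. The sign on the main scale rested on heroin rat 1. Without that rat the median was 0.048 and 12 of the 29 were negative, though 26 of the 29 still lay below the median of all probes, then 0.17. Leaving out any other single rat gave a median between -0.23 and -0.03. Because 15 of the 32 class I probes share sequence with another MHC probe, the 29 are not all independent measurements. Only RT1-A3 had an unadjusted p under 0.05. In heroin rats 1 to 6 it read 1.18, 1.6, 0.808, 1.07, 1.46 and 0.884 array medians, and in saline rats 2 to 6 it read 2.43, 2.03, 1.76, 1.07 and 1.96. Saline rat 5 lay among the heroin rats, and the other 4 saline rats were above all of them. The groups differed by a log2 change of -0.66 ± 0.22 (SE, limma p = 0.00946, adjusted p = 0.263, exact permutation p = 0.0390), and -0.75 after quantile normalization. The call was lost without heroin rat 3 or 6 or saline rat 2, 3 or 6, where the change was -0.56, -0.59, -0.55, -0.61 and -0.62. It was also lost with the normexp background correction and its added 50, where the change was -0.37. The heroin rat was lower in 4 of the 5 same-scan pairs. RT1-CE10, whose probe matches that of RT1-A3 at 52 of 57 bases, changed by -0.20 ± 0.29 (SE). The low value of saline rat 5 was not particular to RT1-A3. This rat was also the lowest saline rat for Cxcl9 (1.89), Il1f5 (1.23) and Il2rb (0.794). Each of them had the smallest p among the lower probes of its kind. For Cxcr4 and RT1-Db1, picked by the same rule, it was not the lowest. Whether these differences reflect the array or the genes was not tested.

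Other class I genes gave similar pictures. RT1-A2 read 37.3 ± 12.8 array medians in heroin rats (SD, n = 6) and 40.7 ± 10.9 in saline rats (SD, n = 5) by its brighter probe, a log2 change of -0.17 ± 0.27 (SE, exact permutation p = 0.641). The brightest RT1-Aw2 probe, A_44_P390172, read 14.8 ± 3.39 and 17.8 ± 2.45 (SD, n = 6 and 5), a change of -0.30 ± 0.18 (SE, limma p = 0.120, exact permutation p = 0.117) that became -0.54 and passed both thresholds after quantile normalization. RT1-CE4, by its probe A_44_P440514, had the smallest p of the 4 class I probes that were higher in heroin rats, with a change of 0.14 ± 0.27 (SE, exact permutation p = 0.675).

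Class I signals varied widely between single rats within the groups. With 1 array per rat, the rat and its array cannot be told apart. All 29 class I probes had an SD between rats, about the group means, above the median of the tested probes of like signal, and 14 of them were among the 10% of all probes with the largest SD. The RT1-Aw2 probe A_44_P196401 read 1.77, 26.4, 2.21, 15.4, 11.4 and 15.7 array medians in heroin rats 1 to 6 and 2.34, 24.2, 9.64, 16.1 and 13.7 in saline rats 2 to 6. It was thus low in heroin rats 1 and 3 and in saline rat 2, with the highest rat at 14.97 times the lowest. RT1-CE16 read 12.5, 60.8, 21.3, 54.4, 48.4 and 25.6 in the heroin rats and 16.4, 50.3, 38.7, 73.0 and 54.1 in the saline rats, and was low in the same 3 rats and in heroin rat 6. RT1-CE3 had its 4 lowest values, 3.24 to 5.66, in these 4 rats, and 10.3 to 16.2 in the other 7. RT1-N1 went another way, with its lowest values in saline rat 3 (0.552) and heroin rats 2 (0.803) and 6 (0.932), and 1.36 to 2.55 in the rest.

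**Figure D4:**
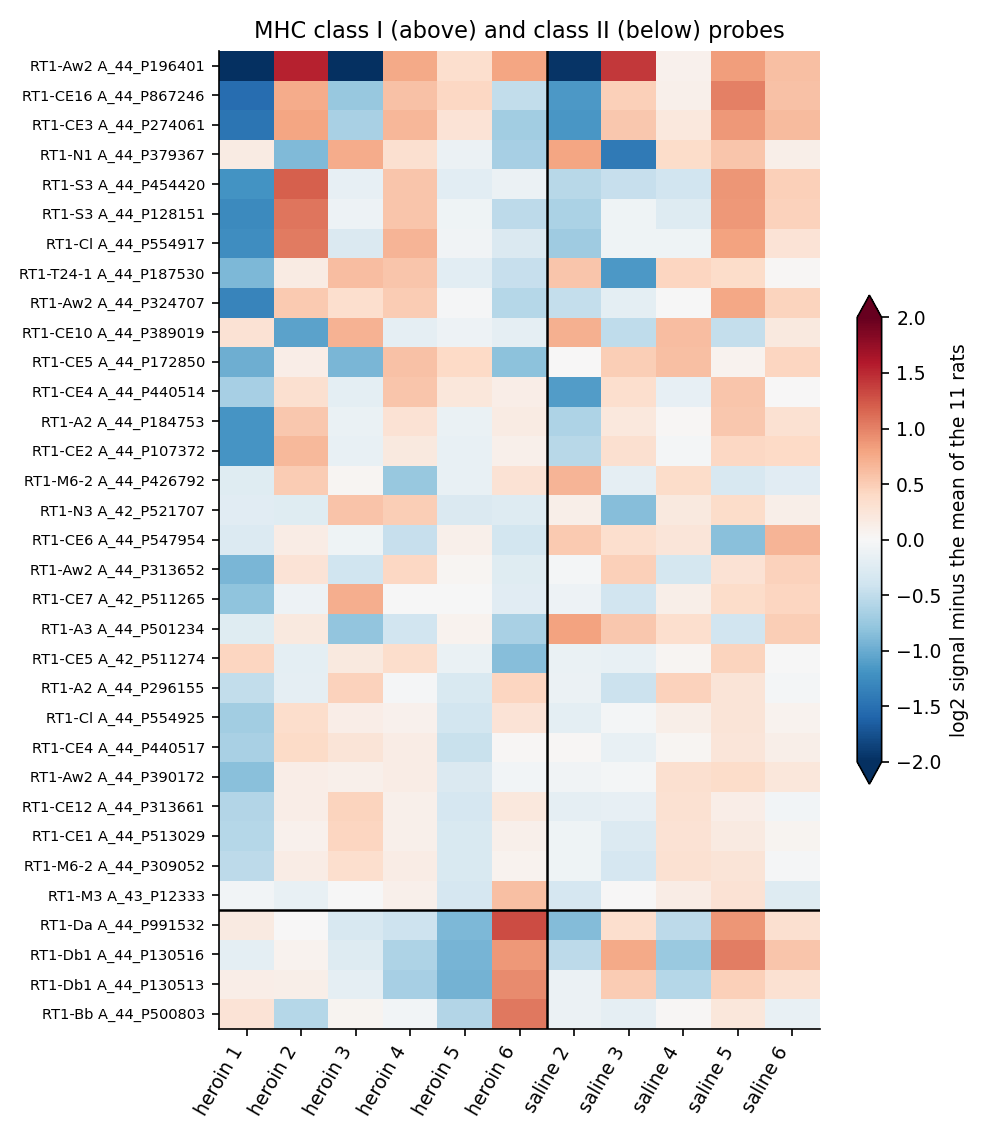
MHC class I probes (above the horizontal line) and class II probes (below it) in each rat. Colour is the log2 signal of a probe minus its mean over the 11 rats, cut off at 2 in either direction, and rows are ordered within each class by the SD between rats. Deviations follow single rats in both groups, as with the low RT1-Aw2, RT1-CE16 and RT1-CE3 values of heroin rats 1 and 3 and saline rat 2, and the high class II values of heroin rat 6.

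Other class I probes had another order of rats. RT1-CE1 read 35.8 to 71.3 array medians over all 11 rats and RT1-CE12 read 29.6 to 60.6, and each was lowest in heroin rat 1 and highest in heroin rat 3. Probes of a single gene could also disagree on the rats. Of the RT1-Cl probes, A_44_P554925 varied 2.06-fold between the lowest and highest rat and A_44_P554917 varied 4.89-fold.

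Class II genes were detected on all arrays by 4 probes, of RT1-Da, RT1-Db1 and RT1-Bb, which encode the alpha chain of 1 class II molecule and beta chains of both. RT1-Da read 3.95, 3.49, 2.79, 2.63, 1.88 and 8.62 array medians in heroin rats 1 to 6 and 1.9, 4.38, 2.42, 6.46 and 4.33 in saline rats 2 to 6. The highest values in each group belonged to heroin rat 6 and saline rat 5, the arrays with the lowest weights in each group when arrays were weighted by their consistency. This gave a log2 change of -0.05 ± 0.36 (SE, exact permutation p = 0.905). Without each rat in turn it lay between -0.31 and 0.17. RT1-Db1 changed by -0.22 ± 0.29 by its brighter probe and by -0.39 ± 0.35 (exact permutation p = 0.368) by the other, and RT1-Bb by 0.06 ± 0.24 (exact permutation p = 0.887).

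The RT1-Bb probes did not agree on the rats. By A_44_P500803, the gene read 0.906 to 2.82 array medians in all 11 rats. The second probe, A_44_P552452, was detected in 3 heroin and 3 saline rats, where it read 0.838 to 3.25, and was not well above background in heroin rats 1, 3 and 6 and saline rats 2 and 4, where it read 0.0667 to 0.199. RT1-Ba, the alpha chain that pairs with RT1-Bb, was detected by its brighter probe in 1 of 6 heroin and 4 of 5 saline rats, with signals of 0.112 to 0.325 and 0.139 to 0.440. Most of these signals were not well above background, and no change is given.

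RT1-Ke4, whose name places it in the RT1 region, is now called Slc39a7 and encodes a zinc transporter, not an MHC molecule. Heroin rats 1 to 6 read 8.50, 9.19, 10.8, 8.21, 7.68 and 9.46 array medians, and saline rats 2 to 6 read 7.45, 7.53, 7.38, 7.27 and 6.85. The groups did not overlap, which by itself makes all 5 same-scan pairs higher in the heroin rat and the permutation p the smallest possible. The log2 change of 0.29 ± 0.12 (SE, limma p = 0.0272, exact permutation p = 0.00433) was below 1.4-fold, stood 0.11 above the median probe and was 0.06 after quantile normalization.

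Of the interleukins, 10 probes could be tested and none was past both thresholds. Il1b, the inflammatory product of activated microglia, read 2.03, 3.23, 4.86, 2.09, 1.02 and 2.20 array medians in heroin rats 1 to 6 and 1.19, 1.6, 2.04, 2.95 and 2.49 in saline rats 2 to 6. Heroin rats held both the highest and the lowest value, and the log2 change was 0.24 ± 0.33 (SE, exact permutation p = 0.580), with 0.45 ± 0.40 by the second probe. Il18, a related cytokine, varied only 1.36-fold between the lowest and the highest rat, from 2.45 to 3.34, and changed by 0.01 ± 0.13 (SE, exact permutation p = 0.957). Il1rn, the antagonist that competes with Il1b for its receptor, read 0.641 to 3.6 in heroin rats and 0.730 to 3.35 in saline rats.

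The smallest p among the interleukin probes that were higher was that of Il15, which sustains natural killer cells and memory T cells. It read 1.22 to 1.99 array medians in heroin rats with a median of 1.51 and 1.23 to 1.37 in saline rats, so 5 of 6 heroin rats were above every saline rat. Heroin minus saline was, on the log2 scale, 0.24 ± 0.13 (SE, limma p = 0.0887, exact permutation p = 0.0390). Il1f5, which encodes an antagonist of the interleukin 36 receptor, was lower, with 1.1 to 2.17 in heroin rats, a median of 1.39, and 1.23 to 2.99 in saline rats. The change of -0.49 ± 0.23 (SE, limma p = 0.0487, exact permutation p = 0.0996) was past both thresholds without heroin rat 2 (-0.61) or saline rat 5 (-0.67).

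Interleukin receptors and associated proteins were tested with 20 probes, of which 9 were higher and 11 lower in heroin rats, with a median log2 change of -0.05. After quantile normalization 15 of the 20 were lower, and 18 with the 75th percentile. None was past both thresholds. Il1rap, the accessory chain without which the interleukin 1 receptor does not signal, read 2.85, 2.38, 2.93, 2.78, 2.14 and 2.37 array medians in heroin rats 1 to 6 and 1.9, 2.13, 1.96, 2.49 and 1.94 in saline rats 2 to 6. Heroin rats 1, 3 and 4 were above every saline rat. On the log2 scale the change was 0.30 ± 0.13 (SE, limma p = 0.0327, exact permutation p = 0.0260), or 0.16 after quantile normalization.

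The chains of the interleukin 6 receptor did not differ beyond the spread. Il6ra (now Il6r), which binds interleukin 6, read 7.5 ± 1.15 array medians in heroin rats (SD, n = 6) and 6.35 ± 1.88 in saline rats (SD, n = 5), a log2 change of 0.28 ± 0.19 (SE, exact permutation p = 0.247). Il6st, the signalling chain gp130, read 4.66 ± 1.08 and 4.05 ± 1.06 (SD, n = 6 and 5), a change of 0.22 ± 0.19 (SE, exact permutation p = 0.359). Il2rb, a chain shared by the receptors of interleukins 2 and 15, had the smallest p among the probes that were lower, with 0.800 to 1.34 in heroin rats and 0.794 to 1.94 in saline rats and a change of -0.46 ± 0.24 (SE, limma p = 0.0731, exact permutation p = 0.130), which was past both thresholds without saline rat 5 (-0.68). Il1rl1l, in spite of its name, is now called Tmed1, a protein of the secretory pathway, and changed by 0.13 ± 0.11.

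The spread between rats was itself uneven over these genes. The SD of the log2 signal about the group means had a median of 0.43 over the 89 probes, against 0.27 over all tested probes, and 40 of the 89 were among the 10% of all probes with the largest SD. Dim probes spread more in general, with a median SD of 0.34 among the 10% with the lowest signal and 0.22 among the 10% with the highest. Set against tested probes of like signal, 20 of 21 chemokine ligand probes, all 29 class I and all 4 class II probes had a larger SD than the median, while the interleukin receptors and associated proteins, with 11 of 20, and the interleukins, with 5 of 10, did not stand apart in this way.

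**Figure D5:**
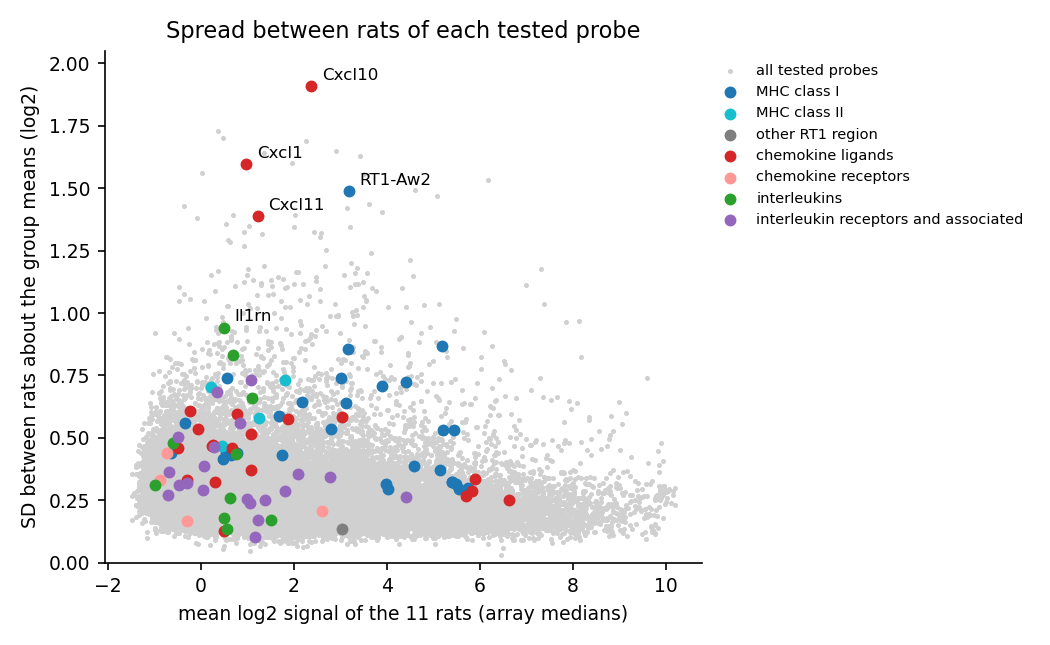
Spread between rats for every tested probe. The horizontal axis is the mean log2 signal of the 11 rats in array medians, the vertical axis is the SD of the log2 signal about the group means, coloured points are the 89 probes by group and grey points are all 25555. Cxcl10 has the largest SD of all (1.91), and Cxcl1 (1.6), an RT1-Aw2 probe (1.49), Cxcl11 (1.39) and Il1rn (0.94) are labelled.

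Genes that work with these were drawn from lists chosen by function. Of 24 tested partners of antigen processing and presentation, Rfx5, a factor that class II promoters need, was lower and past both thresholds, with 0.569 to 0.962 array medians in heroin rats and 0.807 to 1.36 in saline rats and a log2 change of -0.60 ± 0.17 (SE, limma adjusted p = 0.263). None of the other 23 was past both, with B2m at 0.12 ± 0.19 and Cd74, the invariant chain of class II, at 0.02 ± 0.34. Over all tested probes 1.79% were past both as higher and 0.923% as lower. Of 21 tested genes of the interferon response none was past both, and their median change was 0.03. Of 33 tested genes of cytokine signalling and other chemokines none was past both. An unadjusted p under 0.05 was found for 2 of the 33 as higher, against 15.7% of all probes. These were Csf1 (0.55 ± 0.22) and Jak2 (0.31 ± 0.14). Irak4 was the only 1 of the 33 as lower (-0.44 ± 0.17), against 2.83% of all probes.

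Microglia, blood cells and border tissue are known to make many of these transcripts, and in bulk tissue fewer cells and less RNA per cell cannot be told apart. The summed signal of 15 microglial and macrophage markers was 189 to 356 array medians in heroin rats and 219 to 309 in saline rats. That of 14 blood and lymphocyte markers was 249 to 631 and 298 to 570, and that of 10 markers of meninges and choroid plexus 146 to 496 and 165 to 295. These ranges overlapped. Of the 13 microglial markers tested, Ptprc was lower and past both thresholds, with a log2 change of -0.50 ± 0.16 (SE, limma adjusted p = 0.263), while none of the other 12 was past both, with Aif1 at 0.16 ± 0.24 and Cx3cr1 at 0.27 ± 0.13. Of all tested probes, 0.923% were past both as lower. None of the 7 tested blood and 9 tested border markers was past both, and 1 border marker was detected on no array. The summed signal of endothelial markers was 169 to 285 in heroin rats and 145 to 236 in saline rats, that of astrocyte markers 421 to 583 and 350 to 542, and that of oligodendrocyte markers 353 to 884 and 296 to 925, with none past both. Neuronal markers, all 8 of which were detected on all arrays, had a median change of 0.21, close to the 0.18 of all probes. The part that cell makeup has in the changes of Ccl3, Ccl2 and RT1-A3 was not tested.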

How the data were processed

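Gene expression in the mPFC of 11 rats was measured on single-colour arrays. The authors deposited, for each spot, a background-corrected intensity from Feature Extraction 9.5.1.1, not yet scaled between arrays, and a table of relative values, a ratio around 1 for each probe and rat, which served as an alternative. Groups came from the sample titles. The methods describe a further saline array, which was not analysed here.

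From the deposited intensities, control and marked spots were removed. Signals were raised to a floor of 5 and expressed relative to the 50th percentile of the array, and the log2 values of a probe's spots were averaged. A probe was detected where at least 0.5 of its spots were well above background. Probes detected on all arrays and measurable on 2 or more arrays per group entered a two-sided limma test (3.58.1, under R 4.3.3), adjusted by Benjamini-Hochberg. Single genes were also tested by exact permutation over 462 divisions of the rats (scipy 1.17.1). The number of arrays limits the precision.

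A probe's name was updated through RefSeq accessions (122 of 164 matched). Positions are those of the probes in build rn3. Which exon or untranslated part a probe lies in was not analysed. Genes named are those past both thresholds, those with the smallest p in each direction in each group, 25 fixed by role (of which RT1-Dmb, Il33 and Il10rb had no probe) and the 3 with the widest spread, each by its brightest probe unless another is given. Further genes were chosen after their values were seen. The genes and lists were chosen with earlier results of these data known. On simulated data the fit was tested before use. Alternatives are given with their effects after the report, and all used the same rats or all but 1, except where stated. Values of 1 member are not reported here.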

Additional observations from a re-analysis of the deposited data

Results flagged for a closer look

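The signal of Cxcl12, by its probe A_44_P1034439, stood apart in a single rat. Heroin rat 6 read 106 array medians and the other 5 heroin rats 55.5 to 65.9. On the log2 scale the gap to the nearest rat was 0.735 of the whole range of the group. Of 56 groups of values checked in this way it was the only 1 past the limit for its size. Chance passes this limit in about 1 in 20, so 1 of 56 is no more than chance would give. Without this rat the log2 change was 0.28. The second Cxcl12 probe read 62.1 in the same rat, inside the range of 40.4 to 68.6 of the heroin rats.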

How the results depend on the processing

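Of 642 log2 changes of named genes under the alternatives, none that had passed both thresholds turned its sign, 10 lost the call and 19 gained it, while 43 values of changes that had not passed had the opposite sign. Of the tested probes, 2 were past both as higher and 1 as lower. The higher count was 1 with normexp (1.12%, against 0.477% of all probes) and 0 with the methods' t-test (against 0.849%). The normexp setting added 50 to each signal, which makes log2 changes smaller, most in dim probes. Without single rats it was 2 to 3 (2.25% to 3.37%, against 0.932% to 6.32%). The lower count was 3 with the 75th percentile and 3 with quantile normalization (3.37%, against 2.92% and 0.935% of all probes). It was 0 with normexp and 0 with the methods' t-test (against 0.0157% and 0.36%). With no detection filter it was 8 of 164 (4.88%, against 2.65%). For probes detected on all arrays of at least 1 group it was 5 of 104 (4.81%, against 2.11%). With array weights it was 6 (6.74%, against 2.58%). Without single rats the lower count was 0 to 8, against 0.407% to 2.88% of all probes. The 8 came without saline rat 5 (8.99%, against 2.88%). The arrays of heroin rat 6 and saline rat 5 had the lowest weights, and leaving out both, an alternative chosen after seeing the data, gave 7 (7.87%, against 2.46%). An adjusted p under 0.05 (limma) was then found for 6 of the 89 probes (6.74%, against 18.4% of all), and with array weights for 10 (11.2%, against 30.8%). Over all tested probes the counts past both, 458 higher and 236 lower, became 218 and 239 with quantile normalization, 33 and 746 with the 75th percentile, 122 and 4 with normexp, 217 and 92 with the methods' t-test, and 1718 and 660 with array weights.

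With the 75th percentile the median log2 change was -0.28 over all 89 probes, -0.18 for interleukins and -0.27 for interleukin receptors. For probes detected on all arrays of at least 1 group it was -0.18 for interleukins and -0.13 for interleukin receptors. For the receptors it was 0.022 with the authors' relative values, 0.014 without heroin rat 6 and saline rat 5, and -0.061 to 0.040 without single rats. The cause was not tested. The replicate block, which is also the scan block and takes heroin rat 1 out of the comparison, left 2 higher and 1 lower past both, and the same 3 genes. It put the class I median at 0.048 and that of all 89 at 0.019, the values without heroin rat 1. Same-numbered rats did not consistently deviate together. The correlations were 0.38, -0.13, 0.35, 0.02 and -0.24 for numbers 2 to 6, so numbers 2 and 4 did so in part. Only number 4 correlated best with its own number. Detection limits the rest, since 75 of the 164 probes were not well above background on every array.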
